A study of Mus musculus with 36 samples.

Results

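Tissue-resident alveolar macrophages (TR-AΦ) sorted after 4 weeks of exposure to concentrated ambient PM2.5 were compared with TR-AΦ sorted after 4 weeks of filtered air (FA). The members of this comparison were the 6 libraries of these cells, 3 of each exposure, out of the 36 libraries in the series, and the 12663 genes, out of the 27562 genes in the table, whose mean was at least 1 FPKM (fragments scaled to transcript length and to the mapped total) over the 6 libraries. Both groups came from male chimeras made in the same way. C57BL/6J hosts carrying CD45.2 were lethally irradiated with a lead shield over the chest and given busulfan, and were then transplanted with marrow of B6.SJL-Ptprca Pepcb/BoyJ donors carrying CD45.1. The hosts were young adults when irradiated. The FA mice breathed filtered air and the PM2.5 mice concentrated outdoor particles in exposure chambers. Cells were gated as CD64+ CD11c high CD11b low, and the CD45.2 fraction was taken as TR-AΦ. The study used 3 mice per group, each giving 1 library, and in both groups the libraries are numbered 0, 1 and 2. The shield leaves host lung cells of every kind in place, so CD45.2 marks host origin and not a cell type. The origin is not in the sample labels, which give macrophage, exposure and weeks, and was taken from the study's design.

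AΦ live on the air side of the alveolus, where they take up inhaled particles, microbes and spent surfactant, and they renew themselves locally with little input from blood monocytes. Particles reach them through scavenger receptors such as the one encoded by Marco, and known responses to combustion particles include oxidant defence through the factor NRF2, xenobiotic metabolism through the aryl hydrocarbon receptor, and cytokine genes driven by NF-kappa B. The comparison asks which of these genes differed in resident cells after the shorter of the study's exposures.

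FPKM are per length, so levels of different genes can be set side by side, while read depth is not known from them. Library sums ran from 1915192 to 2580779 FPKM, of which the 10 highest genes took 30.5% to 33.8%. Fold changes are differences of mean log2(FPKM + 1), PM2.5 minus FA, which shrinks differences of weakly expressed genes, and are given with their standard error (SE) from limma. A gene passed the test when its Benjamini-Hochberg adjusted p was under 0.05. In RNA of a sorted population, fewer cells of a type and less RNA per cell cannot be told apart.

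The 6 libraries did not group by exposure. The most alike pair was FA replicate 0 and PM2.5 replicate 1, with a Pearson correlation of 0.881 over 12663 genes, and pairs within an exposure had correlations from 0.81 to 0.847. Component 1 of the log2(FPKM + 1) values held 28.1% of the variance. On it, FA replicate 0 and PM2.5 replicate 1 lay at 63.1 and 56.7, and FA replicate 2 and PM2.5 replicate 2 lay at the opposite end, at -55.1 and -61.6. The principal components and the summed markers are plotted together.

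**Figure D1:**
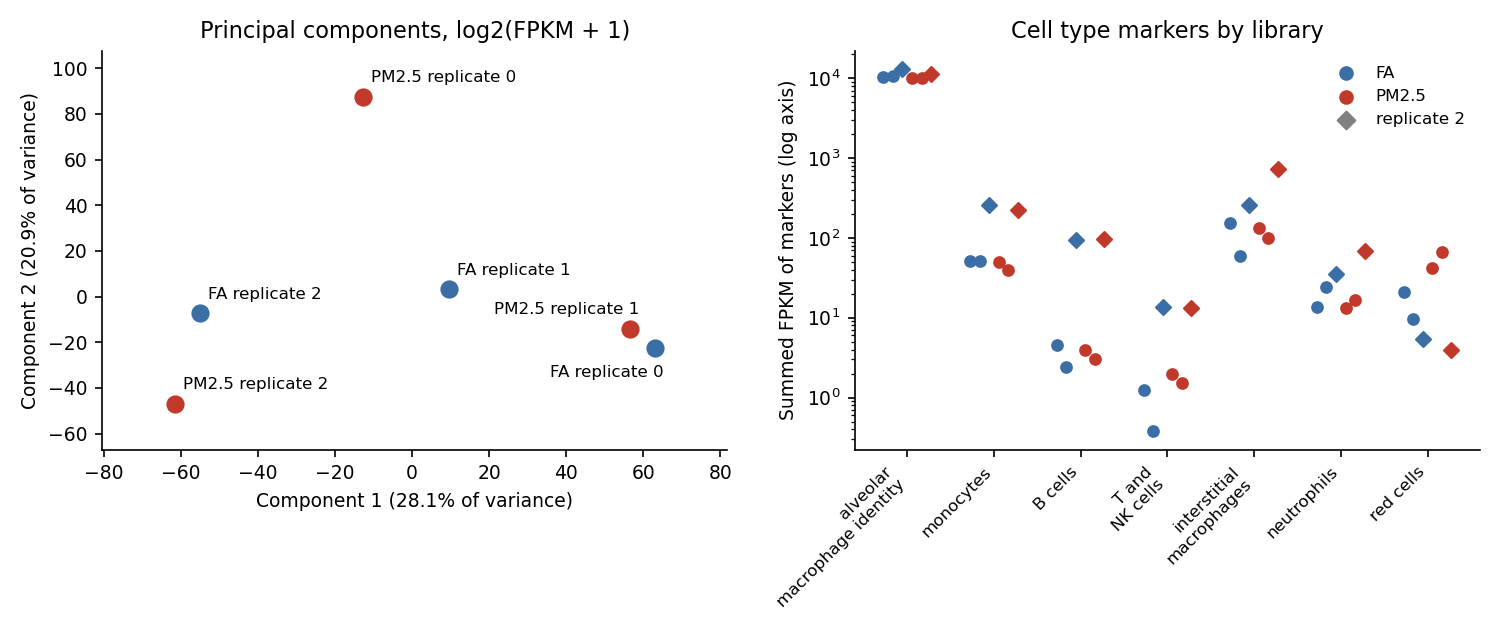
Left, scores of the 6 libraries on principal components 1 and 2 of log2(FPKM + 1), in arbitrary units, with 28.1% and 20.9% of the variance. Right, summed FPKM of cell type marker lists in each library on a log axis, where the 2 replicate 2 libraries (diamonds) lie above the other 4 for monocyte, B cell and T and NK cell markers and every library lies near 10000 for alveolar macrophage identity.

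AΦ identity genes were high in all 6 libraries. All 24 measured members of the alveolar macrophage identity list had a mean of at least 1 FPKM, and their FPKM summed to 9970 to 13100 per library. Chil3, which encodes a chitinase-like protein abundant in AΦ, was at 4226, 4522 and 5451 FPKM in the FA libraries and at 3636, 4491 and 4537 in the PM2.5 libraries. The interval of its log2 fold change of -0.16 ran from -0.99 to 0.66. Ear2, an eosinophil-associated ribonuclease, was at 1999, 1609 and 1800 FPKM with FA and at 1429, 1482 and 1558 with PM2.5, and Siglec1, a sialic acid-binding receptor, was at 96.7, 96.6 and 105.7 with FA and at 93.8, 77.1 and 80.6 with PM2.5. The groups of both genes were apart but close, with log2 fold changes of -0.27 (SE 0.24) and -0.25 (SE 0.12). No identity gene passed the test, and 15 of the 24 were lower with PM2.5, with a median log2 fold change of -0.12. The groups of 4 of the 24 did not overlap, all lower, against 3.49% of all genes.

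Both libraries numbered 2 carried RNA that the other 4 hardly held. Igkc, the immunoglobulin kappa constant chain of B cells, was at 77.0 FPKM in FA replicate 2 and 60.4 in PM2.5 replicate 2 and at most 1.15 elsewhere. The neutrophil and monocyte calcium-binding protein gene S100a9 was at 13.8 and 34.6 against at most 0.258, Plac8 at 32.4 and 13.5 against at most 0.273, and the monocyte surface antigen gene Ly6c2 at 16.5 and 4.78 against 0 in the other 4. Summed monocyte markers were 255 and 221 FPKM in these libraries and 40.1 to 51.2 in the others, summed B cell markers 93.6 and 96.9 against 2.43 to 4.61, and summed T and NK cell markers 13.8 and 13.1 against 0.376 to 1.99. Summed neutrophil markers, which include S100a9, were 35.4 and 68.3 FPKM against 13.4 to 24.4. Within that list Ly6g, Camp, Ltf and Ngp were at 0 in all 6 libraries, and Retnlg was at 2.35 FPKM in PM2.5 replicate 2 only. Of the 12663 genes, 2576 (20.3%) were higher in both replicate 2 libraries than in all 4 others and 707 (5.58%) were lower. The higher genes included inflammatory ones, with Il1b at 636 and 805 FPKM against 54.3 to 132, Ptgs2, the inducible prostaglandin synthase, at 26.2 and 33.9 against 0.683 to 2.03, and Thbs1 at 24.6 and 32.1 against 0.104 to 0.497. Red cell markers ran the other way: Hbb-bs, a haemoglobin beta chain, was at 0 in both replicate 2 libraries and at 9.72 and 2.203 in the other FA and 13.3 and 23.5 in the other PM2.5 libraries. Each exposure holds 1 of these libraries. The main results are therefore also given without both of them.

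Of the 12663 genes, 1 passed the test, which is 0.0079%. It was Cdk8, which encodes the kinase of the Mediator kinase module, a regulator of transcription by RNA polymerase II, and it was lower with PM2.5. Cdk8 lies on the plus strand of chromosome 5 at 146231230 to 146302874 (mm10). It was at 9.45, 14.3 and 12.6 FPKM in the FA libraries and listed at 0 in all 3 PM2.5 libraries. The log2 fold change was -3.70 (SE 0.14), a value that depends on the pseudocount since 1 group is at 0, with an adjusted p of 3.57e-09 in limma. That fit pools the spread of 18 macrophage libraries, and Cdk8 was at 0 in every library of 2 of their groups. The SE and adjusted p therefore also rest on zeros. In a limma model of the 6 libraries only, the adjusted p was 0.0103. Without both replicate 2 libraries the log2 fold change was -3.66, with an adjusted p of 7.9e-07. The gene did not pass with the replicate number as a block (-3.70, adjusted p 0.227) or when only the 4 libraries numbered 0 and 1 were modelled (-3.66, adjusted p 0.162). Exact permutation of 3 against 3 libraries gave p = 0.1, the smallest it can give.

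Cdk8 was also listed at 0 in 1 group outside this comparison. In the 12 groups of the series it was at 0 in every library of 2, the TR-AΦ of PM2.5 mice at 4 weeks and the marrow-derived AΦ (BM-AΦ) of FA mice at 32 weeks, and between 7.68 and 17.3 FPKM, with a median of 11.3, in the other 30 libraries. TR-AΦ of PM2.5 mice at 32 weeks were at 11.8, 10.6 and 11.4 FPKM, and monocytes sorted at 4 weeks from PM2.5 lungs were at 13.9, 10.8 and 9.64. Gm15739, a predicted gene that Cufflinks places in the same locus, was at 0 in the same 6 libraries and in 1 monocyte library of 32 weeks in which Cdk8 was at 8.66 FPKM, and was at 0.302, 0.281 and 1.93 FPKM in the FA libraries of this comparison. Exact zeros in whole groups for a gene that is near 10 FPKM elsewhere can be failed estimates as well as absent transcripts, and FPKM alone cannot tell these apart.

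**Figure D2:**
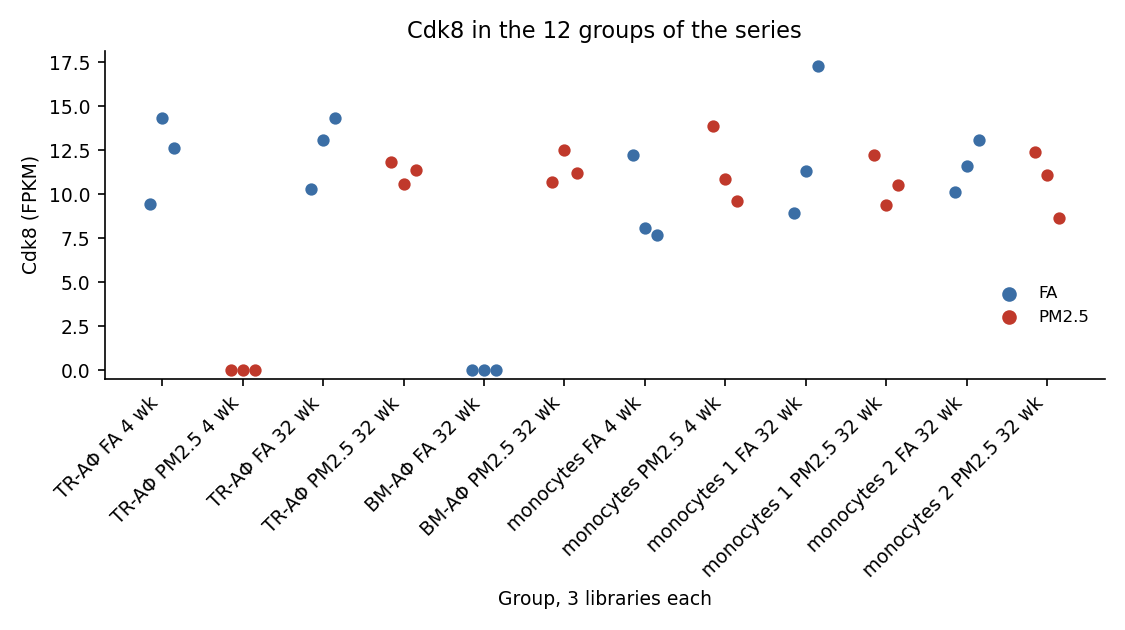
Cdk8 in FPKM, each point 1 library, in the 12 groups of 3 libraries, FA in blue and PM2.5 in red; the monocytes of 32 weeks are numbered 1 and 2 as in the labels. All 3 PM2.5 TR-AΦ libraries of 4 weeks and all 3 FA BM-AΦ libraries of 32 weeks lie at 0, and the other 30 lie between 7.68 and 17.3.

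Apart from Cdk8, the smallest adjusted p was 0.17. There were 414 genes with an unadjusted p under 0.05, or 3.27% of those tested, 171 (1.35%) higher and 243 (1.92%) lower with PM2.5. The median log2 fold change of all genes was -0.0229, and 87.8% of the genes lay within 0.5 of 0 on the log2 scale. The median SE was 0.241, so the 95% interval of a typical gene reached 0.516 to either side of its log2 fold change. That interval is for 1 gene at a time, and the test adjusted over all genes needed larger differences. Elovl6, described below, had a log2 fold change of 1.6 and an adjusted p of 0.414 in limma. Differences of that size or smaller could go undetected with 3 libraries per group, and their absence is not shown.

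A log2 fold change of at least 1 in either direction was found for 651 genes, 317 higher (2.5%) and 334 lower (2.64%), and without both replicate 2 libraries the shares were 2.65% and 2.82%. Most of these were not established protein genes: 581 were predicted genes or small RNA models, 565 were at 0 in at least 1 of the 6 libraries, and 257 were at 0 in both replicate 2 libraries. Only 41 were named genes above 0 in all 6 libraries, and the groups of 25 of these did not overlap. In all, 6 genes were at 0 in every library of 1 exposure while averaging 5 FPKM or more in the other. Besides Cdk8 they were Gm24313, at 49.8, 106.3 and 153.9 FPKM with FA and at 0 with PM2.5, and Gm13245, Gm23388, Gm26002 and Gm28872, all at 0 with FA. Gm23388 was at 3265, 2913 and 2591 FPKM with PM2.5, Gm26002 at 737, 71.4 and 470, Gm28872 at 64.2, 9.68 and 68.8, and Gm13245 at 13.4, 6.68 and 20.5. None of these 5 predicted models passed the test, but in a model of the 6 libraries alone Gm23388 (adjusted p 2.82e-06) and Gm24313 (adjusted p 0.0123) passed in limma. Over the 36 libraries of the series Gm24313 was at 0 in 28, including every library of 6 groups, Gm13245 in 26, also including 6 whole groups, Gm23388 in 15 with 2 whole groups, Gm28872 in 14 with 1, and Gm26002 in 10 with 1. Cdk8 shared the zeros of whole groups, at 6 libraries in 2 groups, and had none outside them.

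**Figure D3:**
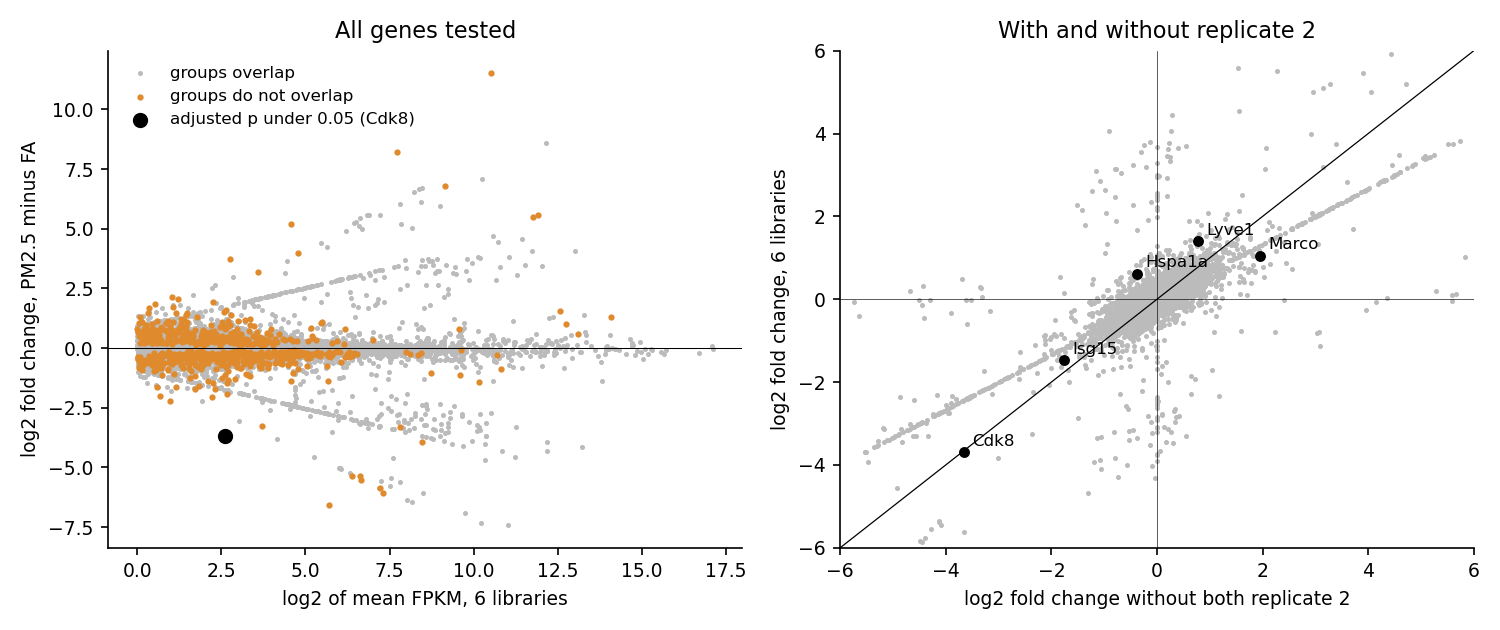
Left, log2 fold change (PM2.5 minus FA) against the log2 of the mean FPKM for the 12663 genes tested, with 753 genes whose groups do not overlap in orange and Cdk8, which passed the test, in black. Right, the log2 fold change from 6 libraries against that without both replicate 2 libraries, where the line marks equality and 43 genes beyond 6 on either axis are not drawn; Hspa1a lies on opposite sides of 0 and Cdk8 near the line.

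The 3 PM2.5 values lay all above or all below the 3 FA values for 753 genes (5.95%), of which 311 (2.46%) were higher and 442 (3.49%) lower with PM2.5, and 178 were predicted or small RNA models. For a single gene such separation gives an exact two-sided permutation p of 0.1, so alone it is weak evidence of a difference. The balance between directions depended on scaling. With quantile normalization 415 were higher and 413 lower, and with median ratio scaling 440 were higher and 413 lower. The genes described next were taken from these 753 by the smallest unadjusted p, 10 in each direction, leaving out predicted and small RNA models. Other than Cdk8 none passed the test, so they are given as values.

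Among the 10 higher genes, Elovl6, an elongase of long-chain fatty acids and a target of the lipogenic factor SREBP-1c, had the largest difference. It was at 1.38, 2.65 and 3.63 FPKM with FA and at 5.73, 9.65 and 14.6 with PM2.5. The log2 fold change was 1.60 (SE 0.33, adjusted p 0.414), and 1.52 without both replicate 2 libraries. Srebf1, which encodes SREBP-1c, did not share its direction, at 22.7, 25.3 and 32.3 FPKM with FA and at 25.1, 19.5 and 19.1 with PM2.5. Dtna, which encodes the dystrophin-associated protein dystrobrevin alpha, was at 0.926, 0.798 and 2.07 FPKM with FA and at 3.93, 2.98 and 5.01 with PM2.5, a log2 fold change of 1.16 (SE 0.25, adjusted p 0.594). Prelid2 was at 0.336, 0.691 and 1.17 with FA and at 4.93, 3.40 and 2.92 with PM2.5 (log2 fold change 1.46, SE 0.29, adjusted p 0.371). The levels of all 3 genes were low, and their groups were apart in every library.

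Arc, an immediate early gene known from synapses, was at 2.98, 3.73 and 2.83 FPKM with FA and at 9.10, 5.39 and 10.2 with PM2.5. Its log2 fold change was 1.11 (SE 0.28). Other immediate early genes at far higher levels did not separate: Egr1 was at 666, 802 and 701 FPKM with FA and at 986, 787 and 946 with PM2.5, and Jun at 455, 508 and 455 against 661, 508 and 822. Casp6, an effector caspase, was at 5.39, 6.88 and 4.12 with FA and at 7.81, 7.91 and 12.03 with PM2.5. Fancf, of the Fanconi anaemia core complex, was at 1.03, 0.326 and 0.332 with FA and at 3.28, 2.54 and 1.498 with PM2.5. The cyclic nucleotide phosphodiesterase gene Pde10a was at 0.377, 0.499 and 0.512 against 1.72, 2.95 and 1.17. Of the remaining 3, Cdc42bpa, a kinase that acts downstream of Cdc42, had a log2 fold change of 0.79. The values were 0.59 for Aaas, a nuclear pore protein, and 0.40 for Rnf141.

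Among the 10 lower genes, Insl6, a relaxin family peptide gene best known from testis, followed Cdk8. It was at 3.23, 2.58 and 2.48 FPKM with FA and at 0, 0.215 and 0.419 with PM2.5, a log2 fold change of -1.65 (SE 0.29, adjusted p 0.17). Ndufc1, an accessory subunit of respiratory complex I, had the highest level of the 10. It was at 29.6, 41.5 and 33.2 FPKM with FA and at 14.0, 10.4 and 14.3 with PM2.5, a log2 fold change of -1.36 (SE 0.31, adjusted p 0.75), and -1.47 without both replicate 2 libraries. All 3 PM2.5 values were under the lowest FA value.

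The other 7 lower genes differed less. Rdm1, a protein with a RAD52 motif, was at 3.73, 2.71 and 3.38 FPKM with FA and at 0.816, 1.5 and 0.709 with PM2.5, a log2 fold change of -1.10 (SE 0.28). Tnip1, whose product restrains NF-kappa B together with A20, was at 26.2, 19.9 and 23.2 with FA and at 12.6, 13.4 and 18.4 with PM2.5, a log2 fold change of -0.62 (SE 0.16). Wdr77, a partner of the arginine methyltransferase PRMT5, was at 8.80, 9.14 and 11.04 with FA and at 6.82, 4.94 and 6.40 with PM2.5. Pccb, a subunit of mitochondrial propionyl-CoA carboxylase, was at 7.40, 6.55 and 7.73 against 4.57, 3.80 and 5.19. Log2 fold changes were -0.60 for Wdr77, -0.58 for Pccb, -0.56 for Prep, a prolyl endopeptidase, -0.51 for Pola2, a subunit of DNA polymerase alpha, and -0.42 for Dtnbp1, of the endosomal complex BLOC-1.

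**Figure D4:**
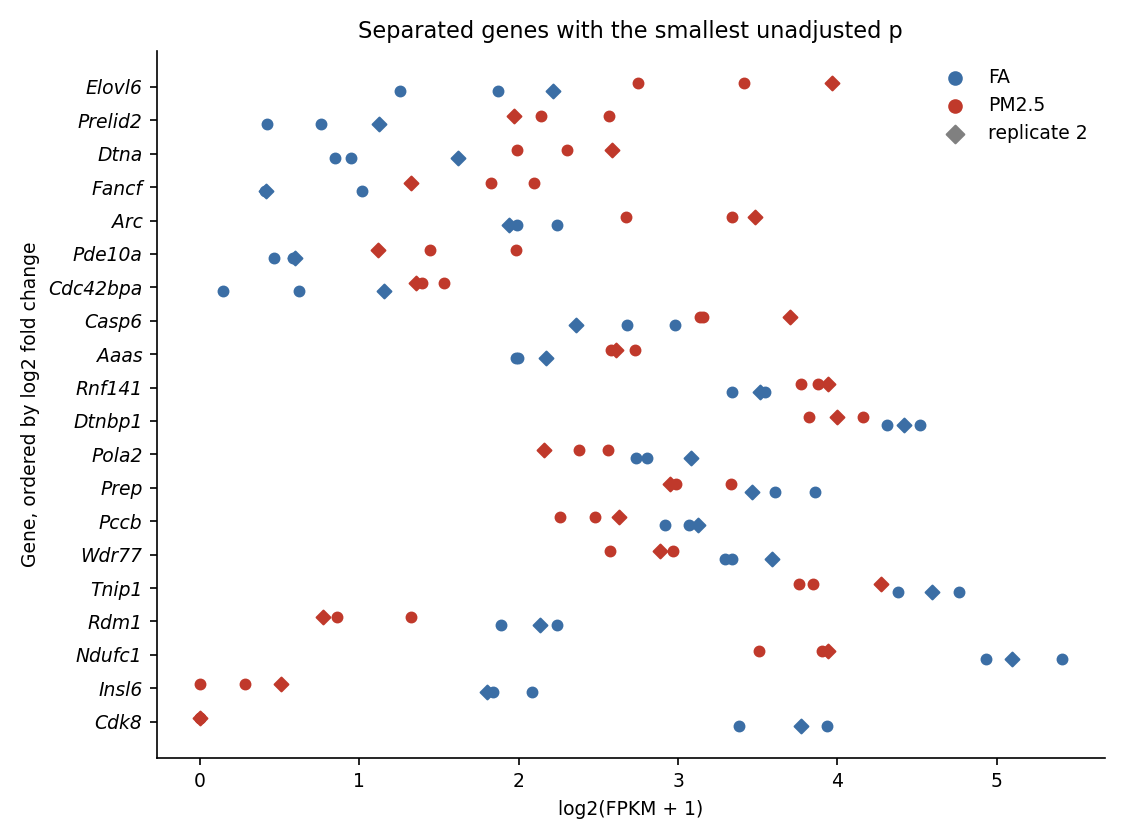
log2(FPKM + 1) of the 20 genes in each of the 3 FA (blue) and 3 PM2.5 (red) libraries, diamonds marking replicate 2, ordered by log2 fold change. By the way they were chosen no gene's groups overlap; Cdk8 lies at 0 in all PM2.5 libraries, and the gap is narrowest for genes with small differences such as Rnf141 and Dtnbp1.

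Without both replicate 2 libraries, 7 genes passed (0.0553%). Cdk8 was among them, and 5 of the others were Vis1 and 4 predicted models. The other was Pstpip2, a membrane-bending adaptor whose loss causes autoinflammatory bone disease in mice. It was at 11.2 and 10.8 FPKM in FA replicates 0 and 1 and at 6.01 and 5.50 in PM2.5 replicates 0 and 1, a log2 fold change of -0.83 with an adjusted p of 0.0352 in limma. With replicate 2, at 9.89 with FA and 11.7 with PM2.5, the groups overlapped and the log2 fold change was -0.48 (SE 0.19). Pstpip2 also passed without PM2.5 replicate 2 alone, but not without FA replicate 2 alone. Nor did it pass when only the 4 libraries numbered 0 and 1 were modelled. The call thus rests on leaving out PM2.5 replicate 2 and on the spread of the other macrophage libraries. Vis1 was at 18.8 and 10.8 FPKM in PM2.5 replicates 0 and 1 and at 0 in the other 4 libraries. All 753 genes whose groups did not overlap kept their direction, as they must when libraries of separated groups are left out.

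The genes of known programmes were read from fixed lists, by the number of members in each direction and their median, beside the background of all genes tested. In that background 45.7% of genes were higher and 54.3% lower with PM2.5, and 43.7% and 55.9% without both replicate 2 libraries, while 50.8% were higher with quantile normalization and 49.6% with median ratio scaling. The groups did not overlap for 2.46% of all genes in the higher direction and 3.49% in the lower, the shares to set beside the counts of such members in the lists. Cdk8 was in none of the lists, so no listed gene passed the test. Medians of NRF2 targets, MHC class II, respiratory chain subunits and glucocorticoid response genes kept their sign whichever library was left out. So did those of type I interferon-induced genes and of fatty acid oxidation and lipid storage. Leaving out 1 library or another turned the sign of every other programme median. Without PM2.5 replicate 2 those of heat shock chaperones, complement and interstitial macrophage markers were -0.066, -0.206 and -0.0837, without FA replicate 2 those of proliferation and of glycolysis and hypoxia were 0.135 and 0.0057, without PM2.5 replicate 0 that of NF-kappa B genes was 0.1, and without FA replicate 1 that of other chemokines was -0.0105. The plot of list medians shows 24 programmes with the range of each when 1 library is left out.

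**Figure D5:**
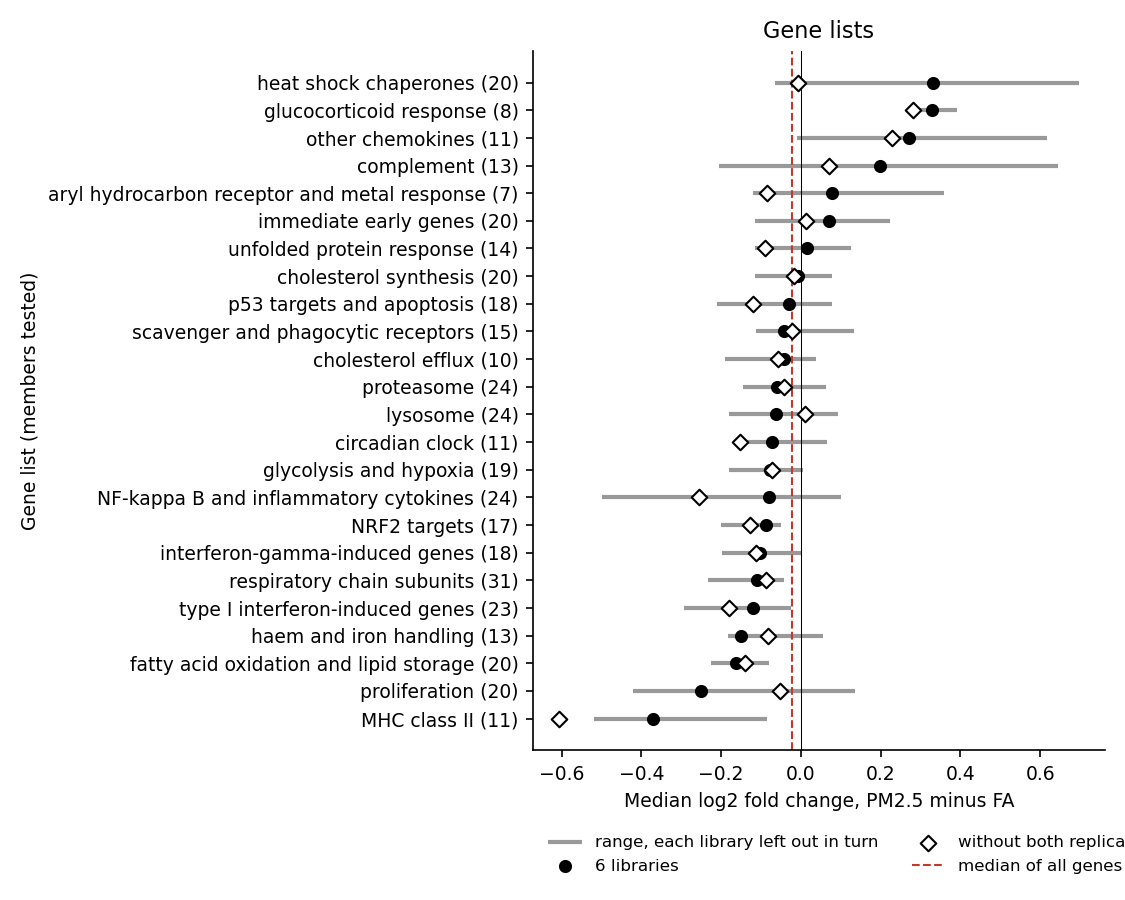
Median log2 fold change (PM2.5 minus FA) of the tested members of each gene list, with the number tested in parentheses; black points use 6 libraries, open diamonds leave out both replicate 2 libraries, grey lines span the values with each library left out in turn, and the dashed line marks the median of all genes, -0.0229. The MHC class II median lies at -0.371 and -0.606, and that of the heat shock chaperones moves from 0.332 to -0.00685.

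Interferon-induced genes were more often lower than higher. Type I interferon acts on these genes through the interferon-stimulated response element in their promoters. Of 23 type I interferon-induced genes tested, 15 were lower and 8 higher with PM2.5, where 54.3% of all genes were lower. The median log2 fold change was -0.12, and -0.181 without both replicate 2 libraries. Without FA replicate 2 alone it was -0.0244, near the median of all genes with 6 libraries, -0.0229. The groups of 2 members did not overlap, both lower (3.49% of all genes). Isg15, a ubiquitin-like modifier on the minus strand of chromosome 4 at 156199424 to 156200818 (mm10), differed most. It was at 14.0, 7.90 and 7.69 FPKM with FA and at 2.08, 2.74 and 3.71 with PM2.5, so that every PM2.5 value was lower. Its log2 fold change was -1.47 (SE 0.46), with an adjusted p of 1.0 in limma. Oasl1, an oligoadenylate synthetase-like protein, overlapped, at 5.62, 1.61 and 0.676 with FA and at 0.281, 0.777 and 1.004 with PM2.5. Ifih1, the double-stranded RNA sensor MDA5, was at 27.5, 16.5 and 11.3 with FA and at 12.6, 15.4 and 10.7 with PM2.5, and the highest value of all 3 genes was in FA replicate 0.

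Of 18 interferon-gamma-induced genes, 13 were lower and 5 higher, with a median of -0.102, and the groups of 3 did not overlap, all lower (3.49% of all genes). Without both replicate 2 libraries 11 were lower and 7 higher, and without FA replicate 2 alone the median was 0.00211. The 3 separated genes were the chemokine gene Cxcl9, at 4.86, 3.28 and 2.56 FPKM with FA and at 0.870, 1.89 and 1.92 with PM2.5 (log2 fold change -0.83, SE 0.29), Cd274, which encodes PD-L1, at 77.6, 90.7 and 76.7 against 61.7, 70.5 and 74.2, and the immunoproteasome subunit gene Psmb8, at 43.4, 38.7 and 35.4 against 33.7, 32.3 and 30.8. Cxcl10, the related chemokine, was at 241, 187 and 65.8 FPKM with FA and at 102, 100 and 77.7 with PM2.5, so FA replicate 2 was the lowest of the 6. The upstream 250 bases of the promoters of Isg15 and Cxcl10 are shown because Isg15 differed most in its list, Cxcl10 had the highest FA level in its own, and both hold the response element. Capitals mark matches to GAAA, NN and GAAA in a row, or to the reverse complement (RefSeq, GRCm38.p6, both on the minus strand, chr4:156200819-156201068 and chr5:92348890-92349139).
Isg15: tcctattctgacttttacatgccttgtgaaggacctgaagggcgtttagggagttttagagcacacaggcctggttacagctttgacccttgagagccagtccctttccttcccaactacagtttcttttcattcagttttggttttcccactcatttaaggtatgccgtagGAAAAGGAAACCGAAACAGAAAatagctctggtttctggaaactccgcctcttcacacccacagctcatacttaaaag
Cxcl10: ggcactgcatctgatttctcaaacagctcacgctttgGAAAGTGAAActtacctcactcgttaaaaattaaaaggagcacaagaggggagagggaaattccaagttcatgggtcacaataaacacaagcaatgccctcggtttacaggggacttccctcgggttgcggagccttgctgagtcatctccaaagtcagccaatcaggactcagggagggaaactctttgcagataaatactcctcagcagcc

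The Isg15 promoter held 3 overlapping matches and that of Cxcl10 held 1. Of 17 tested type I interferon-induced genes with a promoter in the reference, 7 held a match, and of 16 tested interferon-gamma-induced genes 9 did. Of all 27025 genes with a promoter, tested or not, 936 (3.46%) held a match. The match describes letters in the window and says nothing of whether a factor was bound. Of the 7869 tested genes with a promoter, 250 (3.18%) held it.

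NF-kappa B and cytokine genes leaned lower mainly outside replicate 2. Of 24 tested, 17 were lower with PM2.5 with a median of -0.0804, and without both replicate 2 libraries 21 were lower with a median of -0.255. The chemokine gene Ccl4 was at 63.3, 42.0 and 39.5 FPKM with FA and at 18.4, 11.3 and 65.5 with PM2.5. PM2.5 replicate 2 was thus the highest of all 6 libraries and the other PM2.5 libraries the lowest. Its log2 fold change was -0.94 (SE 0.71), and -1.77 without both replicate 2 libraries. Nfkbib, an inhibitor of NF-kappa B, had the same order, at 53.1, 37.5 and 44.9 with FA and at 31.7, 28.9 and 55.1 with PM2.5. Cxcl2, a neutrophil chemokine, was at 688, 821 and 900 with FA and at 623, 637 and 1008 with PM2.5.

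MHC class II genes had the lowest median of the lists, -0.371, with 10 of 11 members lower, and -0.606 without both replicate 2 libraries. Without PM2.5 replicate 1 alone it was -0.0854. No member separated. Cd74, the invariant chain that guides class II molecules, was at 1849, 1922 and 1978 FPKM with FA and at 1367, 945 and 2234 with PM2.5. H2-Aa, a class II alpha chain, was at 1030, 839 and 873 with FA and at 601, 432 and 1109 with PM2.5. H2-DMb1, a peptide-loading factor, was at 89.7, 82.3 and 79.0 with FA and at 77.4, 43.4 and 79.3 with PM2.5. In Cd74 and H2-Aa, PM2.5 replicate 2 was the highest library and the other PM2.5 libraries were under all FA libraries. Both replicate 2 libraries also held the B cell transcripts given above, although the CD64+ CD11c high gate should remove B cells, and their part in these values was not tested.

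Heat shock chaperones also depended on replicate 2. Of 20 tested, 18 were higher with PM2.5 with a median log2 fold change of 0.332, but without both replicate 2 libraries 9 were higher and the median was -0.00685. Hspa1a, the inducible HSP70, was at 24.3, 21.98 and 69.2 FPKM with FA and at 21.7, 14.4 and 424.8 with PM2.5, so that its log2 fold change of 0.62 (SE 1.03) became -0.37. Hsph1, a co-chaperone of HSP70, was at 17.4, 39.7 and 19.3 with FA and at 21.1, 34.6 and 112.6 with PM2.5. Hspa8, the constitutive HSP70, was at 395, 336 and 265 with FA and at 254, 652 and 504 with PM2.5. Hspa2 alone separated, at 5.23, 5.29 and 5.31 with FA and at 10.5, 6.47 and 14.0 with PM2.5.

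Genes of interstitial macrophages and complement were higher mainly in PM2.5 replicate 2. Summed interstitial macrophage markers were 153, 58.8 and 261 FPKM with FA and 135, 101 and 732 with PM2.5, and 11 of 12 were higher with a median log2 fold change of 0.672 (0.307 without both replicate 2 libraries). C1qa, C1qb and C1qc encode the chains of C1q, which starts the classical complement pathway. C1qa was at 37.1, 14.5 and 79.2 FPKM with FA and at 46.6, 19.1 and 196.9 with PM2.5, C1qb at 36.7, 12.6 and 56.3 against 20.6, 25.1 and 184.4, and C1qc at 24.7, 8.40 and 50.2 against 28.5, 19.8 and 151.9. The PM2.5 replicate 2 library was the highest for all 3, and FA replicate 1 the lowest. Cd163, the haemoglobin scavenger receptor of interstitial macrophages, was at 2.03, 0.429 and 1.61 with FA and at 2.83, 1.77 and 12.5 with PM2.5. Lyve1, a hyaluronan receptor, separated at low levels, at 0.911, 0.211 and 0.892 with FA and at 1.17, 2.12 and 11.02 with PM2.5. C3ar1, the receptor of complement fragment C3a, was at 9.66, 4.11 and 19.6 against 4.25, 6.20 and 55.8. Apoe, which carries lipid out of macrophages, had the same high library, at 294, 61.7 and 360 with FA and at 205, 208 and 968 with PM2.5.

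Chemokines outside the NF-kappa B list varied widely within each group. Ccl6, an abundant chemokine of AΦ, was at 1319, 2082 and 2075 FPKM with FA and at 1712, 3285 and 2009 with PM2.5. Ccl9 was at 20.1, 31.1 and 47.1 with FA and at 28.2, 98.6 and 88.5 with PM2.5, a log2 fold change of 0.999 (SE 0.77). Ccl12, a monocyte chemokine, was at 0, 0 and 1.08 with FA and at 1.85, 0.932 and 3.61 with PM2.5, and Cxcl13, which draws B cells, at 2.06, 1.29 and 5.01 against 3.17, 2.39 and 18.01. The matrix-degrading enzyme gene Mmp9 was at 1.04, 0.192 and 1.56 with FA and at 1.41, 1.27 and 6.24 with PM2.5. The groups of all 5 genes overlapped.

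Particle uptake and oxidant defence genes showed no change that passed the test. Marco was at 6.42, 10.9 and 49.3 FPKM with FA and at 44.9, 28.2 and 28.7 with PM2.5. FA replicate 2 was the highest of all 6, so the groups overlapped in spite of 2 low FA libraries, with a log2 fold change of 1.05 (SE 0.61) and 1.96 without both replicate 2 libraries. Of 17 NRF2 targets 13 were lower, against 54.3% of all genes, with a median of -0.0879. With quantile normalization the median was -0.0254. The groups of 3 targets were apart, all lower (3.49% of all genes). Of these, Blvrb, a biliverdin reductase, was at 8.17, 9.14 and 9.85 with FA and at 3.70, 6.57 and 6.53 with PM2.5 (log2 fold change -0.64, SE 0.25), and G6pdx, which supplies NADPH, at 44.4, 45.1 and 47.1 against 36.9, 32.8 and 43.8. Hmox1, the haem-degrading enzyme and a classical NRF2 target, was at 288, 289 and 203 FPKM with FA and at 212, 240 and 209 with PM2.5. Ftl1, the ferritin light chain, was at 2827, 2773 and 3864 with FA and at 3395, 2226 and 2932 with PM2.5, and the interval of its log2 fold change of -0.15 ran from -0.57 to 0.27. Cyp1a1 and Cyp1b1, the standard readouts of the aryl hydrocarbon receptor, were listed at 0 in all 6 libraries. Mt1, a metallothionein that responds to metals, was at 163, 193 and 321 FPKM with FA and at 193, 253 and 263 with PM2.5.

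Energy and lipid genes were mostly slightly lower. Of 31 respiratory chain subunits 25 were lower, against 54.3% of all genes, with a median of -0.11. The groups of 5 subunits did not overlap, all lower (3.49% of all genes). But with quantile normalization the median was -0.0251, and without both replicate 2 libraries 17 of 31 were lower. Ndufv2, of complex I, was at 27.3, 26.9 and 26.7 FPKM with FA and at 16.3, 21.7 and 22.2 with PM2.5, and Sdhc, of complex II, at 67.1, 53.4 and 61.6 against 45.2, 52.3 and 49.9. The log2 fold changes were -0.42 (SE 0.16) and -0.30 (SE 0.14). Of 20 genes of fatty acid oxidation and lipid storage 15 were lower, with a median of -0.162. The glycerol phosphate dehydrogenase gene Gpd1 separated, at 8.92, 6.63 and 4.70 with FA and at 4.40, 1.89 and 3.63 with PM2.5. Cpt1a, which brings fatty acids into mitochondria, was at 54.7, 64.7 and 61.5 against 62.1, 44.98 and 47.2, and Lpl, lipoprotein lipase, at 181, 153 and 315 against 185, 74.8 and 189. Of 19 glycolysis and hypoxia genes 14 were lower, with a median of -0.0777. Pgam1, a phosphoglycerate mutase, was at 4.67, 9.33 and 8.73 with FA and at 4.27, 1.77 and 6.02 with PM2.5, and Aldoa, an aldolase at far higher level, at 318, 330 and 406 against 349, 250 and 313.

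Glucocorticoid response genes were more often higher. Of 8 tested, 5 were higher, the groups of 3 did not overlap, all higher (2.46% of all genes), and the median log2 fold change was 0.33 (0.281 without both replicate 2 libraries). Tsc22d3, which encodes the glucocorticoid-induced leucine zipper, was at 36.7, 63.7 and 57.6 FPKM with FA and at 70.7, 77.2 and 128.8 with PM2.5. Its log2 fold change was 0.78 (SE 0.43). Fkbp5, a co-chaperone of the glucocorticoid receptor, was at 21.0, 19.5 and 19.3 with FA and at 29.8, 26.3 and 22.8 with PM2.5, and Klf9 at 8.57, 10.1 and 10.7 against 13.6, 11.5 and 15.2. None of the 3 passed the test. The list's median was -0.463 in TR-AΦ at 32 weeks and 0.124 in monocytes at 4 weeks. Nr4a2, an inducible nuclear receptor in the immediate early list, followed replicate 2 instead, at 18.4, 14.3 and 57.5 with FA and at 6.57, 6.97 and 62.6 with PM2.5.

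Growth and protein turnover genes gave small differences. Of 20 proliferation genes 16 were lower with a median of -0.25, which was -0.0528 without both replicate 2 libraries. Pcna, the sliding clamp of DNA replication, was at 44.8, 47.8 and 70.4 FPKM with FA and at 36.7, 37.0 and 61.2 with PM2.5, and Mki67, the Ki-67 antigen, at 8.19, 7.44 and 10.4 against 7.68, 5.80 and 7.13. Of 24 proteasome subunits 14 were lower, against 54.3% of all genes, with a median of -0.0589, and the groups of 2 did not overlap, both lower (3.49% of all genes). Psmc4, of the regulatory particle, separated, at 19.8, 22.6 and 22.5 with FA and at 19.0, 17.0 and 18.9 with PM2.5, and Psma5, of the core, did not, at 1.81, 3.23 and 4.63 against 1.16, 0.844 and 2.04.

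No member of the remaining lists passed the test either. Lysosome genes were lower in 20 of 24, with a median of -0.0628, but 13 of 24 were higher without both replicate 2 libraries, and the sign of the median turned with quantile normalization, to 0.0151. Medians that turned in the same way were those of scavenger and phagocytic receptors (-0.0421, 7 of 15 higher), cholesterol synthesis (-0.00642, 8 of 20 higher), cholesterol efflux (-0.0427, 4 of 10 higher), p53 targets and apoptosis (-0.0289, 5 of 18 higher), the circadian clock (-0.0732, 5 of 11 higher) and the aryl hydrocarbon receptor and metal response (0.0781, 4 of 7 higher). Cholesterol synthesis also turned with median ratio scaling. Haem and iron handling had 8 of 13 lower with a median of -0.15, the unfolded protein response 7 of 14 higher with a median of 0.0157, immediate early genes 12 of 20 higher with a median of 0.0711, complement 8 of 13 higher with a median of 0.198, and other chemokines 7 of 11 higher with a median of 0.271. Of the 13 genes in the list of mitochondrially encoded genes 2 were in the table, and neither reached 1 FPKM on average. Mitochondrial tRNA genes were not in that list, and 1 of them, mt-Ti, averaged 33240 FPKM.

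Most transcripts of other lung cells were low and uneven. Sftpc, surfactant protein C of alveolar type II cells, was at 3.17, 5.33 and 5.12 FPKM with FA and at 9.49, 8.86 and 15.7 with PM2.5, so the groups were apart, with a log2 fold change of 1.14 (SE 0.71). Scgb1a1, of airway club cells, was at 12.5, 2.88 and 3.16 against 8.24, 16.1 and 35.96. Epcam, an epithelial adhesion molecule, was not low, at 52.2, 48.3 and 47.4 against 53.5, 26.7 and 31.9, with no separation. Of the 12 lung epithelium markers, 6 were under 1 FPKM in all 6 libraries. Clec9a, of conventional dendritic cells, was at 0.962, 1.48 and 0.470 with FA and at 2.25, 3.21 and 1.74 with PM2.5, again apart. In the list of 10 dendritic cell markers, 3 reached a mean of 1 FPKM. All 3 were higher, and only Clec9a separated (2.46% of all genes). Xcr1 and Zbtb46, in the same list but under that mean, overlapped. Of the red cell genes, Hba-a2 was at 3.38, 4.01 and 0.553 with FA and at 19.0, 25.7 and 1.31 with PM2.5. In both exposures replicate 2 was the lowest.

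The differences at 4 weeks were set against those in the same cells at 32 weeks and in monocytes at 4 weeks, by testing the difference of the fold changes. Cdk8 passed both tests, as the 1 gene of 12663 (0.0079%) for time and the 1 gene of 12973 (0.00771%) for cell type. At an unadjusted p under 0.05 the 2 tests gave 394 (3.11%) and 371 genes (2.86%). Its log2 fold change was -0.14 in TR-AΦ at 32 weeks and 0.28 in monocytes at 4 weeks, against -3.70 here. No other gene passed, so no difference in PM2.5 effect between exposure times or cell types was shown for the genes above, though for Isg15, with -1.47 here, the values were 0.16 in the longer exposure and 0.02 in monocytes.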

How the data were processed

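The authors trimmed reads of SMART-Seq stranded libraries, aligned them to mm10 with STAR under GENCODE annotation, and deposited FPKM per gene from Cufflinks for all 36 libraries; the submitters' notes also name Cuffdiff. No tool versions are in those notes. Exact zeros were kept. No counts were used, so depth behind a value is unknown. Groups were taken from sample titles. For the 6 libraries, log2(FPKM + 1) was analysed with limma 3.58.1 in R 4.3.3, with 1 mean per group over 18 macrophage libraries, a variance trend over the mean and Benjamini-Hochberg adjustment over the 12663 genes averaging 1 FPKM or more. The threshold was 0.05. Interactions with time used the same model, and those with cell type all 36 libraries. Single genes were also compared by exact two-sided permutation (smallest p 0.1). Gene lists got no test. The procedure was tested on simulated data. Python 3.11.15, pandas 2.3.3 and matplotlib 3.10.9 were used. Members and lists were chosen with earlier results of these data known. Genes were named by these rules: all that passed; 10 per direction with the smallest unadjusted p among genes whose groups did not overlap and whose direction held without replicate 2, leaving out predicted and small RNA models; up to 4 per list, by p and by level; genes at 0 in 1 whole group that averaged 5 FPKM or more in the other; and genes the study names for this comparison. Pstpip2, Vis1, Ly6c2, Plac8, Thbs1, Ptgs2, Il1b, Gm15739, Fkbp5, Klf9 and Hmox1 were chosen after their values were seen. Alternatives were a pseudocount of 0.1, other filters, quantile normalization, median ratio scaling, models of fewer libraries, a replicate block and leaving out libraries. Coordinates are from GENCODE vM21 by Ensembl identifier. The labels do not say whether equal replicate numbers pair the samples. The correlations of same-numbered deviations were -0.0856, -0.0345 and 0.161, which cannot tell whether those libraries were handled together. Some genes are not reported here.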

Additional observations from a re-analysis of the deposited data

Results flagged for a closer look

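The PM2.5 difference of Cdk8 differed between exposure times and between cell types by a test of that difference in limma. The log2 fold change at 32 weeks minus that at 4 weeks in TR-AΦ was 3.56 (SE 0.20, adjusted p 7.06e-07), and the log2 fold change in TR-AΦ minus that in monocytes, both at 4 weeks, was -3.98 (SE 0.27, adjusted p 4.43e-10). Both rest on the zeros listed for Cdk8 in the 3 PM2.5 libraries of 4 weeks. Groups of 3 libraries are too small for a test of single outlying libraries.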

How the results depend on the processing

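Cdk8 passed in 13 of 15 alternatives. It did not with the replicate block (log2 fold change -3.70, adjusted p 0.227) or in the model of the 4 libraries numbered 0 and 1 (-3.66, adjusted p 0.162). The count of genes that passed, 1 in the main analysis, was 14 in that 4-library model, 13 of them predicted or small RNA models, 3 in the model of the 6 libraries only (Cdk8, Gm23388 and Gm24313), 8 with no filter on low values, 7 without both replicate 2 libraries and 1 with the replicate block, where the gene was Gm23388. It was 1 to 6 when each library was left out, with 3 without FA replicate 2, 4 without PM2.5 replicate 1 and 6 without PM2.5 replicate 2. The difference between times gave 1 gene, but 5 without both replicate 2 libraries, 2 with the replicate block and 1 to 4 when each library was left out, and that between cell types gave 1, but 3 with no filter, 2 without both replicate 2 libraries and 1 to 2 when each library was left out. The count of genes whose groups did not overlap, 753, was 1184 with no filter, 3382 without both replicate 2 libraries, also in the 4-library model, and 1536 to 2184 when each library was left out, since fewer libraries overlap less. Other causes were not tested. Of 87 named genes 80 kept their direction throughout. Those whose groups did not overlap had to keep it when libraries were left out, so for them the count is no check. Without both replicate 2 libraries, also in the 4-library model, Hspa1a was at -0.37 and C3ar1 at -0.26. With each library left out, log2 fold changes ran from -0.88 to 1.51 for Hspa1a, -0.23 to 1.42 for C1qa, -0.38 to 1.17 for C1qb, -0.76 to 0.96 for C3ar1, -0.34 to 0.0063 for Cxcl2, -0.29 to 0.017 for Ftl1 and -0.089 to 0.40 for Mt1. Same-numbered libraries did not all correlate best with each other, FA replicate 0 doing so with PM2.5 replicate 1 (0.254). Depth could not be assessed from FPKM.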
